A study of Mus musculus with 4 samples.

Results

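The genes described here encode the membrane-bound ephrins and their Eph receptors, the secreted Slits and their Robo receptors, and the netrins with their Unc5 receptors, measured in single stromal cells of the embryonic mouse gut. They were taken by symbol from the gene list of the deposited matrices, and 38 of 28692 listed gene identifiers matched. These carry 36 symbols, namely 8 ephrins (Efna, Efnb), 14 Eph receptors (Epha, Ephb), 3 Slits, 4 Robos, 3 netrins and 4 Unc5 receptors, because Ntn5 is listed under 3 identifiers. No measured value entered the choice.

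Ephrins and Eph receptors signal between touching cells, and both the receptor-bearing and the ephrin-bearing cell can respond. A-type ephrins are held in the membrane by a lipid anchor and bind mainly EphA receptors, whereas B-type ephrins span the membrane and bind mainly EphB receptors. Slits are secreted proteins that repel growing axons and migrating cells through Robo receptors, and netrins attract through Dcc and Neo1 or repel through Unc5 receptors. In the gut these systems are known for boundary formation between tissue compartments and for guiding the neural crest cells that build the enteric nervous system.

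Single-cell RNA-seq libraries had been made from the small intestine (SI) and from the large intestine with cecum (LI) of untreated E12.5 embryos (embryonic day), with 2 libraries per region. Titles and source names of all 4 samples give this age, whereas their description and tissue fields name adult stroma and lamina propria, and the titles were followed. The mice were of the strain labelled EYFP (C57BL/6), which expresses the yellow fluorescent protein EYFP ubiquitously, and each of 2 independent experiments pooled several embryos, so that the libraries of a region are separate pools rather than single animals. The sort kept live YFP+ Itgb1+ cells and discarded those bearing the leukocyte marker CD45, the red cell marker Ter119, the endothelial marker CD31 or the epithelial marker EpCAM, so that stroma and neural cells remained. All 4 libraries share this strain, age and gate, and no group was treated. The labels name 10x kits for either end of the transcript without saying which library used which.

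The 4 libraries held 24485 barcodes, of which 22094 cells were kept, with 31630548 to 62886525 unique molecular identifiers (UMIs) per library. LI replicate 1 stood apart in depth, its kept cells having a median of 4220.5 UMIs against 8382 to 8829 in the other 3, and results that rest on it are also given without it. Any pair of libraries shared 8 to 15 cell barcodes. Cells were clustered without the genes described here and were grouped by fixed markers into mesothelial (1315 cells), neural (1246), smooth muscle (5271) and other mesenchyme (11432). A further cluster of 1201 cells, led by Wnt4, Anxa2 and Tac2 and left without a cell type name, is called cluster 6. Summed neural markers reached 3194.69 to 4892.5 CPM (UMIs per 1000000 UMIs summed over the cells of that group and library) in neural cells and 16.6 to 172 CPM in the other groups and cluster 6, and summed mesothelial markers reached 1683.83 to 2497.89 CPM in mesothelial cells. Summed smooth muscle markers reached 4710 to 10174 CPM in the smooth muscle group of 3 libraries but 1599 CPM in that of LI replicate 1. In that library cluster 6 was above the smooth muscle group, at 3239 CPM, against 948 to 1149 CPM in cluster 6 of the other 3, so the members' smooth muscle and cluster 6 calls, and their counts against other mesenchyme, are also given without it. The part of this in the results was not tested. The fixed list for other mesenchyme, mainly collagens and fibroblast genes, summed to 1260 to 2214 CPM in that group and 30.3 to 53.2 CPM in neural cells. In each library its sum was higher in smooth muscle (1340 to 2442 CPM over the 4 libraries), mesothelial cells (1575 to 3735 CPM) and cluster 6 (1739 to 3211 CPM), so the list sets other mesenchyme apart from neural cells but not from these groups, and the name stands for mesenchyme outside the other named groups. Summed endothelial, immune and erythroid markers stayed at or below 60.8, 8.02 and 21.1 CPM in every group, and epithelial markers reached 101.8 to 207 CPM in mesothelial cells.

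The families differed in how many of their members were detected. All 8 ephrins and all 5 EphB receptors were present, with 1279 to 14720 UMIs per A-type ephrin, 3340 to 12274 per B-type ephrin and 603 to 3612 per EphB receptor over all kept cells. Of 9 EphA receptors, 7 had at least 50 UMIs, while Epha6 had 2 UMIs and Epha8 had 35. Among Slits and Robos, Slit2 (5574 UMIs), Slit3 (4402), Robo1 (8410) and Robo2 (5111) carried nearly all of the signal, with 41 UMIs for Slit1, 4 for Robo4, the endothelial Robo, and 1 for Robo3. Ntn1, the best-known secreted netrin, had 2431 UMIs, Ntn4 had 127, and Ntn5 had 77 UMIs under 1 identifier and none under the other 2. All 4 Unc5 receptors were present, with Unc5c at 7858 UMIs, Unc5b at 1183, Unc5d at 122 and Unc5a at 104. In all, 31 of the 38 identifiers had at least 50 UMIs. UMI counts are not divided by transcript length, so these totals state detection and do not rank the genes.

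**Figure D1:**
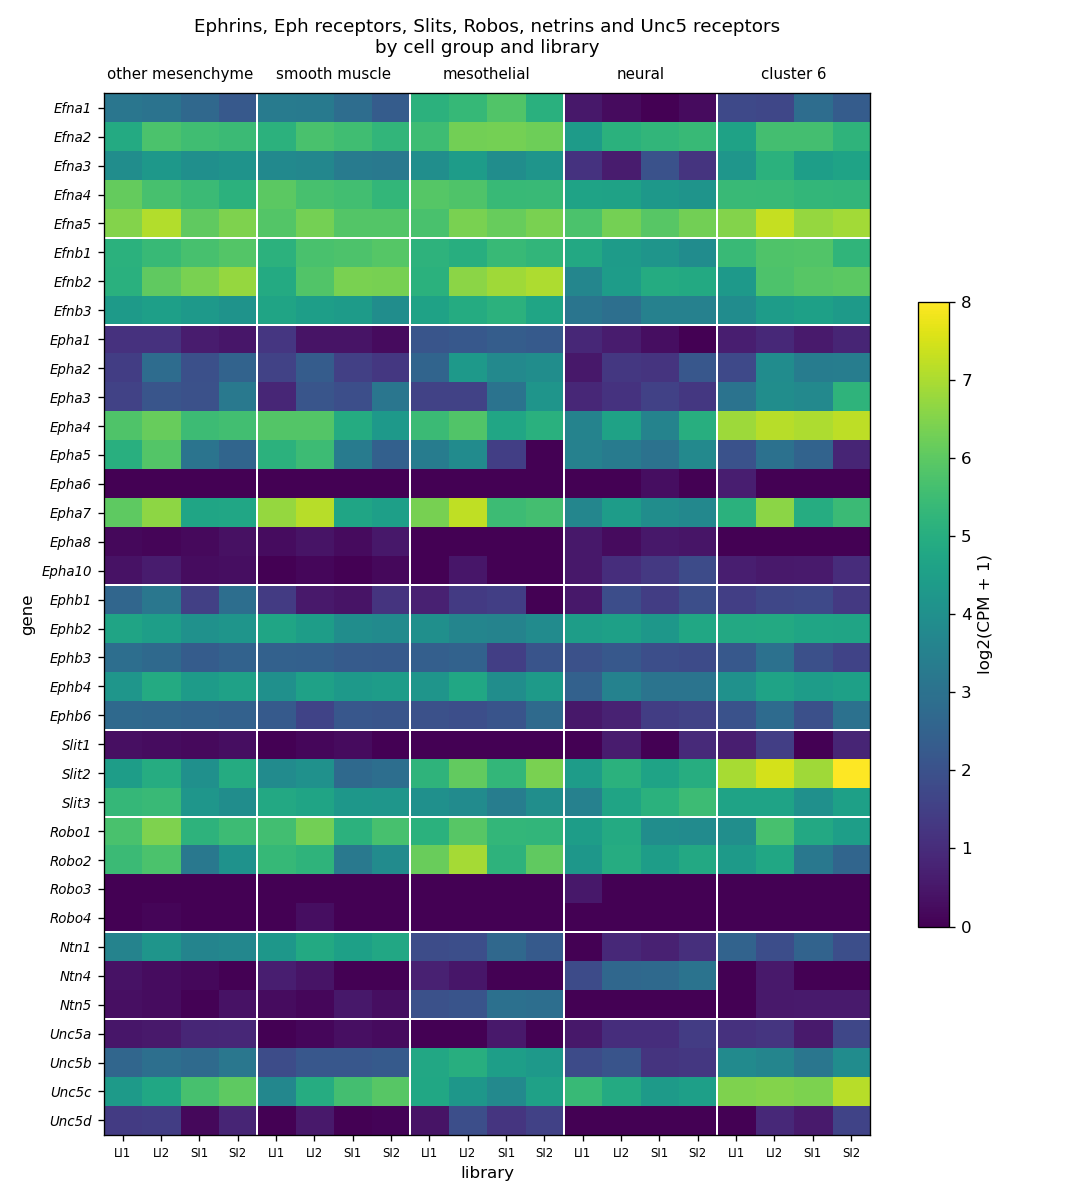
Heat map of every detected gene of the families (rows) in each library (columns, grouped by cell group), coloured by log2 of CPM plus 1. Efna1 and Unc5b were brightest in the mesothelial columns, Slit2 in the cluster 6 columns, and Epha5 was brighter in the LI than in the SI columns of other mesenchyme and smooth muscle.

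The first comparison asked which of these genes differed between SI and LI within the same cell group. UMIs were summed over the cells of each group in each library and tested with edgeR's quasi-likelihood test, 2 libraries against 2, with Benjamini-Hochberg adjustment over all genes tested. A summed level can move because more cells carry the RNA or because each cell carries more of it, and the sums do not separate these. In other mesenchyme, 5 of the 28 members tested passed at an adjusted p under 0.05. Epha5, Epha7, Robo2 and Slit3 were higher in LI, and Unc5c was higher in SI. Of all 13757 genes tested in those cells, 4.53% passed, with 3.19% higher in LI and 1.34% higher in SI. The median log2 difference (SI over LI) of the 28 members was −0.18, beside 0.01 over all genes tested. The other 10 identifiers (Slit1, Robo3, Robo4, Epha6, Epha8, Epha10, Ntn4 and all 3 of Ntn5) fell under the filter on low counts. With 1 library left out, here and in all later tests, its region keeps a single library, which is assumed to vary as the 2 libraries of the other region do, so calls gained that way carry no measure of spread within the reduced region. Without LI replicate 1, the count was 7, and the same 5 were among them. Without LI replicate 2 the count was 11.

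Epha5 and Epha7, both receptors for A-type ephrins, were the EphA receptors that differed by region. In other mesenchyme, Epha5 stood at 32.2 and 57.0 CPM in LI replicates 1 and 2 and at 7.55 and 5.13 CPM in SI replicates 1 and 2. The lowest LI library was thus above both SI libraries, and the fitted log2 difference (SI over LI, here and below) was −2.63 ± 0.32 (standard error, SE), with an edgeR adjusted p of 0.00455. Epha7 stood at 64.1 and 99.8 CPM in LI and at 24.9 and 25.4 CPM in SI, a log2 difference of −1.53 ± 0.22 (adjusted p = 0.0101, edgeR). The same 2 receptors differed in smooth muscle, where Epha7 was at 104.6 and 141.8 CPM in LI against 25.0 and 22.1 CPM in SI, with no overlap. Its log2 difference there was −2.25 ± 0.21 (adjusted p = 0.0034, edgeR), and that of Epha5 was −2.42 ± 0.33 (adjusted p = 0.0161, edgeR), from 34.0 and 43.4 CPM in LI against 8.97 and 4.45 CPM in SI. Without LI replicate 1 these smooth muscle differences were −2.45 for Epha7 (adjusted p = 0.000578, edgeR) and −2.58 for Epha5 (adjusted p = 0.00757, edgeR).

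In mesothelial cells, 1 of 23 members tested passed, again Epha5, where 1.1% of all 10646 genes tested passed, 0.611% higher in LI and 0.488% higher in SI. It had 28 and 34 UMIs in the LI libraries (9.32 and 13.5 CPM) and 4 and 0 UMIs in the SI libraries (1.82 CPM and 0, the latter allowing up to 1.91 CPM at 3 counts), with a log2 difference of −3.31 ± 0.69 and an edgeR adjusted p of 0.0425. This call rested on few UMIs. The count was 0 without SI replicate 2 and 2 without LI replicate 1 or SI replicate 1. The Epha5 call was lost without LI replicate 2 (log2 difference −3.06) and without SI replicate 2 (−2.53). It was also lost after all sums were thinned to the smallest (adjusted p = 0.0582, edgeR) and with more doublets removed (adjusted p = 0.0999, edgeR). Without SI replicate 1 the only SI library left had 0 UMIs, and no size is given for that fit. Mesothelial Epha7 lay on the same side, at 81.5 and 148.8 CPM in LI and 43.6 and 47.8 CPM in SI, and missed the threshold (adjusted p = 0.0513, edgeR). It passed with DESeq2 (adjusted p = 0.0191). In edgeR it passed with RLE factors (adjusted p = 0.0484), at the finer clustering (0.0447) and with sums thinned to the smallest (0.0377), but not with more doublets removed (0.106). It passed without LI replicate 1 (−1.62) but not without LI replicate 2 (−0.82), SI replicate 1 (−1.20) or SI replicate 2 (−1.30). DESeq2 did not call Epha5 there (adjusted p = 0.0713). Epha3, another EphA receptor, had the opposite sign in mesothelial cells with a log2 difference of 2.59 and also missed it (adjusted p = 0.0513, edgeR), from 2.00 and 1.99 CPM in LI against 7.27 and 17.2 CPM in SI. Without SI replicate 1 it passed, at 3.13 (adjusted p = 0.00594, edgeR), and without SI replicate 2 its adjusted p was 0.732.

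Epha5 lies on the minus strand of chr5:84054761-84417382, Epha7 on the plus strand of chr4:28813131-28967499 and Robo2, treated next, on the minus strand of chr16:73891839-74411825 (mm10, GENCODE vM21). The 250 bases before their start sites are printed because these 3 genes were higher in LI in both other mesenchyme and smooth muscle. They come from the RefSeq promoter table for GRCm38.p6, are written 5′ to 3′ on the gene's strand, and hold no annotated exon. Capitals mark matches, on either strand, to the homeodomain core TAATTA, the bicoid-type site TAATCC, the posterior HOX site CAATAAA or the GC box GGGCGG.
Epha5 chr5:84417383-84417632: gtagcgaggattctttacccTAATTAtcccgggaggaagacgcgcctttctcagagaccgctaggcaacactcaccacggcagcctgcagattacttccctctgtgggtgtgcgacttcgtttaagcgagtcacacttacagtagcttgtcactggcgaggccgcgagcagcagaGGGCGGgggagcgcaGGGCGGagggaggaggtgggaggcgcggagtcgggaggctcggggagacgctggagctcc
Epha7 chr4:28812881-28813130: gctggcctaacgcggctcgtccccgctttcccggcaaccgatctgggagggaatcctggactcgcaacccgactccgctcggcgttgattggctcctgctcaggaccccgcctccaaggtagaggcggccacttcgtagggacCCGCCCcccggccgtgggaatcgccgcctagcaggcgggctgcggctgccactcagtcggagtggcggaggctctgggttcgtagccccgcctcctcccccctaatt
Robo2 chr16:74411826-74412075: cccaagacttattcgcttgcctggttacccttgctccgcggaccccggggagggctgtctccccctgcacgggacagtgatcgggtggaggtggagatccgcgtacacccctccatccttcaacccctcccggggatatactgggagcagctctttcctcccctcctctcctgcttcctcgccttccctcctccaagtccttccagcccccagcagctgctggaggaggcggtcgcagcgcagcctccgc
The Epha5 window held TAATTA at 225 bases and GC boxes at 70 and 55 bases before the start, the Epha7 window held 1 GC box on the opposite strand at 102 bases, and the Robo2 window held none of the 4 motifs. Of 32851 windows of the same length, 4.84% held TAATTA, 6.25% TAATCC, 4.2% CAATAAA and 32.7% GGGCGG. GC made up 62.4%, 69.2% and 65.6% of the 3 windows. RefSeq gives Robo2 3 start sites, and the window printed belongs to the one that matches the gene model of the files. Such matches describe letters only, and the windows of Slit3 and Unc5c are not shown because they overlap exons.

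**Figure D2:**
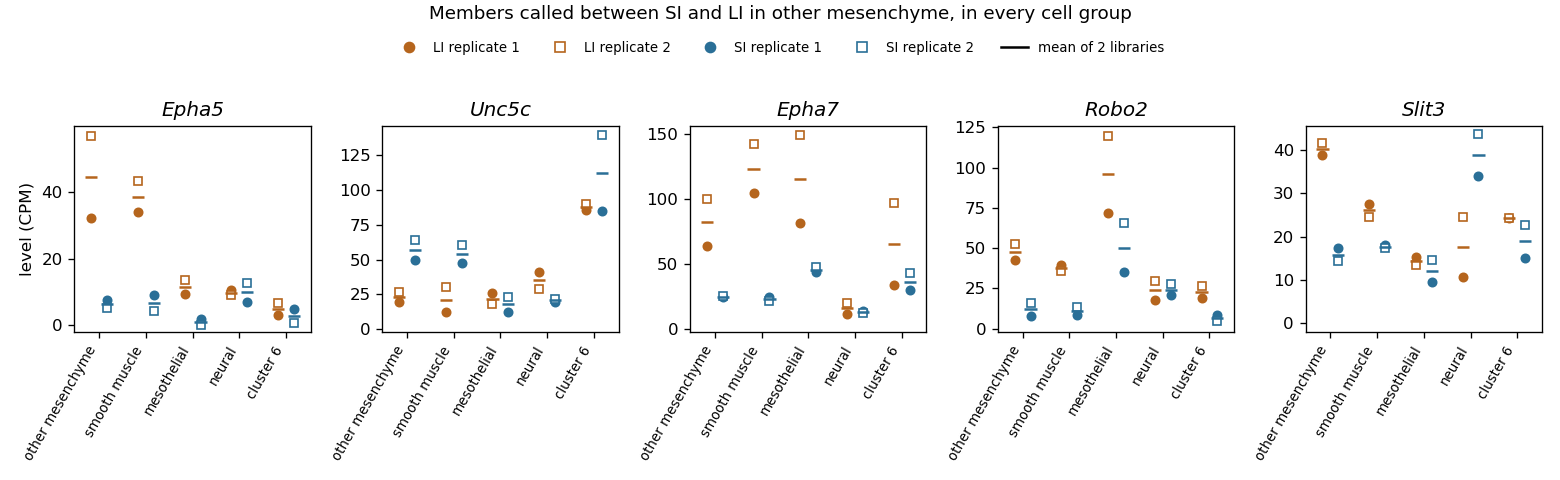
Level (CPM) of Epha5, Epha7, Robo2, Slit3 and Unc5c in each of the 4 libraries, by cell group, with a line at the mean of the 2 libraries of a region. In other mesenchyme both LI libraries lay above both SI libraries for the first 4 genes and below them for Unc5c, while in neural cells the regions overlapped for Epha5, Epha7 and Robo2.

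Of the Slits, Slit3 differed by region in other mesenchyme, at 38.8 and 41.6 CPM in LI and 17.4 and 14.3 CPM in SI. The log2 difference was −1.17 ± 0.19 (adjusted p = 0.0167, edgeR). The call was lost without SI replicate 1 (adjusted p = 0.0563) and without SI replicate 2 (adjusted p = 0.152). Slit2, its paralogue and likewise a Robo ligand, was at 21.0 and 30.2 CPM in LI and 15.3 and 29.7 CPM in SI, overlapping ranges with a log2 difference of −0.02 ± 0.31. In smooth muscle, Slit2 was at 13.7 and 15.5 CPM in LI against 5.72 and 6.40 CPM in SI, and its log2 difference of −1.12 ± 0.23 missed the threshold (adjusted p = 0.0767, edgeR).

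Of the receptors for Slits, Robo2 was higher in LI in other mesenchyme, at 42.9 and 52.3 CPM against 8.19 and 15.8 CPM in SI, with a log2 difference of −1.82 ± 0.29 (adjusted p = 0.0154, edgeR). It was also higher in LI smooth muscle, at 39.8 and 35.8 CPM against 8.36 and 13.5 CPM, with a log2 difference of −1.63 ± 0.27 (adjusted p = 0.0321, edgeR). Both calls depended on how cells were grouped or counted, with a log2 difference of −1.41 (adjusted p = 0.0530) in other mesenchyme at the finer clustering, −1.42 (adjusted p = 0.0789) when the unnamed clusters were added to it, and −1.55 (adjusted p = 0.0514) in smooth muscle after all sums were thinned to the smallest. Without LI replicate 1 the smooth muscle difference was −1.54 (adjusted p = 0.0440, edgeR). In mesothelial cells Robo2 was at 71.9 and 119.8 CPM in LI and 35.0 and 65.6 CPM in SI, a log2 difference of −0.89 ± 0.31 that did not pass (adjusted p = 0.286, edgeR). Robo1 lay on the LI side in other mesenchyme with a log2 difference of −0.62 ± 0.25 (adjusted p = 0.210, edgeR), from 51.0 and 86.3 CPM against 35.1 and 43.7 CPM. Its 2 LI libraries differed from each other by more than the lower of them differed from the SI libraries, and that spread is absent from the fit without LI replicate 1, which gave a log2 difference of −0.96 and an adjusted p of 0.00412 from 1 LI library.

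Unc5c, a receptor through which netrins repel, was the member that was higher in SI. It stood at 19.6 and 26.5 CPM in LI and 49.9 and 64.4 CPM in SI in other mesenchyme, so the regions did not overlap, and the log2 difference was 1.48 ± 0.21 (adjusted p = 0.0095, edgeR). In smooth muscle it was at 12.1 and 30.1 CPM in LI and 47.4 and 60.2 CPM in SI, with a similar log2 difference of 1.47 but a larger SE of 0.37, and it missed the threshold (adjusted p = 0.135). Its ligand Ntn1 did not pass in other mesenchyme, at 10.88 and 16.96 CPM in LI and 11.32 and 11.99 CPM in SI. An antisense transcript, Gm15688, shares exon bases with Unc5c.

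None of the 8 ephrins passed between SI and LI in the edgeR test of all 4 libraries described above, in any group, but several alternatives called some of them. At an unadjusted p under 0.05 were 2 of the 3 B-type ephrins in other mesenchyme, 2 in smooth muscle, 1 in mesothelial and 2 in neural cells, and none of the A-type ephrins. DESeq2 called Efnb2 in other mesenchyme (adjusted p = 0.00230) and smooth muscle (adjusted p = 0.0134) and Efnb1 in other mesenchyme (adjusted p = 0.0350). Without LI replicate 2, edgeR called 4 ephrins in other mesenchyme (Efna2, Efna4, Efnb1 and Efnb2), 3 in neural cells (Efna2, Efnb1 and Efnb2) and Efnb2 in smooth muscle, mesothelial cells and cluster 6. Without SI replicate 1 or SI replicate 2, it called Efnb2 in smooth muscle. With equal numbers of cells drawn from each cluster of other mesenchyme, edgeR called Efnb2 there (1.23, adjusted p = 0.0469). Without the filter on low counts it called Efnb1 and Efnb2 in other mesenchyme and Efnb2 in smooth muscle and mesothelial cells. The B-type ligand Efnb2 had the largest difference among them in other mesenchyme, a log2 value of 1.12 ± 0.29 (adjusted p = 0.0776, edgeR), from 32.8 and 65.0 CPM in LI and 83.9 and 104.7 CPM in SI. LI replicate 1 held the lowest Efnb2 level of the 4 libraries in every cell group, and without that library the log2 difference was 0.71 with an adjusted p of 0.0360. Efnb1 was at 33.7 and 41.4 CPM in LI and 49.9 and 57.2 CPM in SI, with a log2 difference of 0.68 ± 0.18 (adjusted p = 0.0789, edgeR). The A-type ephrins lay between −0.54 and 0.30 in other mesenchyme, and no EphB receptor passed there in edgeR or DESeq2 or had an unadjusted edgeR p under 0.05, with log2 differences between −0.52 and 0.08.

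In smooth muscle, 3 of 25 members tested passed (Epha5, Epha7 and Robo2), where 1.39% of all 12377 genes tested passed and 1.03% were higher in LI. The members' median log2 difference was −0.27, beside 0.01 over all genes. The count was 3 without LI replicate 1, 6 without LI replicate 2, 7 without SI replicate 1 and 5 without SI replicate 2. The EphA receptor Epha4 was at 57.1 and 56.7 CPM in LI and 29.2 and 19.3 CPM in SI smooth muscle, and missed the threshold at a log2 difference of −1.10 ± 0.23 (adjusted p = 0.0834, edgeR). DESeq2 called 6 members in smooth muscle, the additional ones being Epha4, Unc5c and Efnb2. Without LI replicate 1 the edgeR differences were −1.09 for Epha4 (adjusted p = 0.0974), 0.99 for Unc5c (adjusted p = 0.112, from 1.47 with all libraries) and 0.70 for Efnb2 (adjusted p = 0.164, from 1.08). In neural cells none of 20 members tested passed, where 0.31% of all 11283 genes did (0.204% higher in LI and 0.106% higher in SI), although 6 members had an unadjusted p under 0.05 in edgeR, and DESeq2 called none either. Leaving out LI replicate 2 gave 5 calls there and leaving out LI replicate 1 gave 1. In cluster 6 none of 22 passed in edgeR or DESeq2 with all 4 libraries, with 0.292% of all 10279 genes passing (0.233% with LI above SI, 0.0584% with SI above LI) and 2 members at an unadjusted edgeR p under 0.05. One of these was Robo2, at 19.4 and 26.5 CPM in LI and 8.26 and 5.09 CPM in SI, a log2 difference of −1.82 ± 0.37 (adjusted p = 0.107, edgeR). With LI replicate 2 as the single LI library, and the spread thus taken from the 2 SI libraries, edgeR called 3 members in cluster 6, all higher in LI, namely Epha7 (−1.31, adjusted p = 2.43e-05), Robo2 (−1.99, adjusted p = 3.89e-05) and Robo1 (−0.99, adjusted p = 0.0227). It called 3 without LI replicate 2 (Efnb2, Epha3 and Robo2), 2 without SI replicate 1 (Epha3 and Robo2) and 0 without SI replicate 2.

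**Figure D3:**
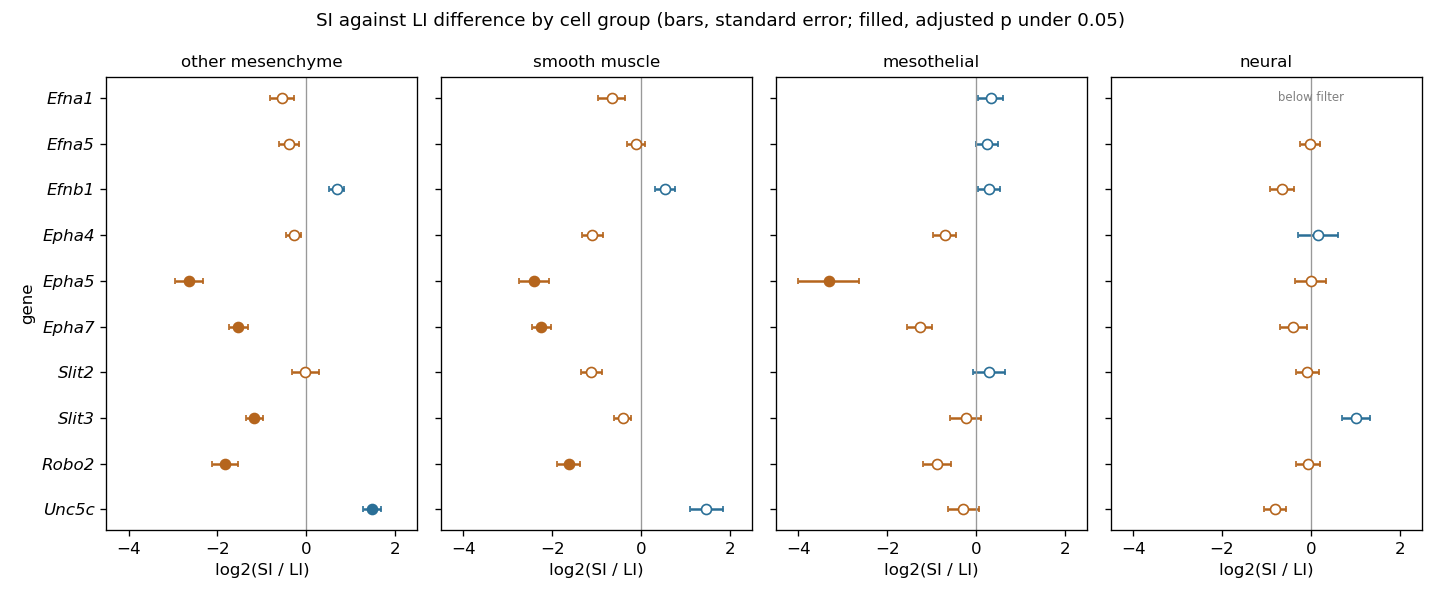
Log2 difference between SI and LI (x axis, SI over LI) for each gene that passed in any test (y axis), in 1 panel per cell group, with bars of 1 standard error and filled points where the adjusted p was under 0.05. Epha5, Epha7 and Robo2 lay left of 0 in other mesenchyme and smooth muscle and near 0 or closer to it in neural cells, and Unc5c changed side between other mesenchyme (1.48) and neural cells (−0.80).

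Whether the regional difference itself differed between cell groups was tested as an interaction, fitted with the library as a block. Values below are the log2 SI over LI difference in the named group minus that in other mesenchyme. For neural cells, 7 of 30 members tested passed, where 14.6% of all 13325 genes passed (5.66% above 0 and 8.92% below 0). The value was above 0 for Epha5 (2.79 ± 0.42), Slit3 (2.20 ± 0.28), Robo2 (1.81 ± 0.23), Epha7 (1.21 ± 0.20) and Efna5 (0.41 ± 0.13), and below 0 for Unc5c (−2.19 ± 0.27) and Efnb1 (−1.26 ± 0.26). The gene levels show what lies behind these values. Neural Epha5 was at 10.6 and 8.97 CPM in LI and 7.16 and 12.7 CPM in SI, overlapping ranges. Neural Epha7 overlapped as well, at 11.8 and 20.5 CPM in LI and 14.3 and 12.3 CPM in SI. Robo2 overlapped over all neural cells, at 17.7 and 29.8 against 21.1 and 27.5 CPM. That overlap did not hold within the progenitor and neuronal cells described below. In progenitor cells Robo2 was at 14.8 and 18.3 CPM in LI and 5.70 and 6.18 CPM in SI. In neuronal cells it was at 23.4 and 59.0 CPM in LI and 61.2 and 80.4 CPM in SI. The regional difference within these 2 kinds of neural cell was not tested. Slit3 and Unc5c had the opposite sign in neural cells, with Slit3 at 10.6 and 24.4 CPM in LI and 33.9 and 43.7 CPM in SI, and Unc5c at 41.4 and 28.9 CPM in LI and 19.5 and 21.8 CPM in SI. Efnb1 likewise turned, at 27.5 and 19.9 CPM in neural LI and 16.9 and 13.9 CPM in neural SI. Efna5, an A-type ephrin, was at 52.8 and 80.0 CPM in LI and 60.3 and 77.3 CPM in SI neural cells against 90.7, 133.2, 64.6 and 86.7 CPM in other mesenchyme. Its interaction was lost when any 1 of the 4 libraries was left out, with adjusted p from 0.0764 to 0.232, and with DESeq2 (0.282), RLE factors (0.0533) and the finer clustering (0.0851).

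For mesothelial cells, 4 of 28 members tested passed the interaction, where 6.18% of all 13205 genes passed (2.23% above 0 and 3.95% below 0). Unc5c was below 0 (−1.80 ± 0.29, adjusted p = 0.000299, edgeR), since its mesothelial levels of 26.0 and 17.9 CPM in LI and 12.7 and 22.9 CPM in SI overlapped. Robo2 was above 0 (0.96 ± 0.18, adjusted p = 0.00203, edgeR), its regional difference being smaller in mesothelial cells. At the finer clustering it did not pass, at 0.55 (adjusted p = 0.160). Efna5 passed at 0.64 ± 0.15 (adjusted p = 0.0107, edgeR), with 50.9 and 82.4 CPM in LI and 69.1 and 82.2 CPM in SI mesothelium, and was lost without SI replicate 1 (adjusted p = 0.0815). Efna1 passed at 0.84 ± 0.25 (adjusted p = 0.0461, edgeR) and was lost without LI replicate 1 (adjusted p = 0.299) or without SI replicate 1 (adjusted p = 0.290). DESeq2 called neither Efna5 (adjusted p = 0.102) nor Efna1 (adjusted p = 0.342) here, and Efna1 was also lost at the finer clustering (adjusted p = 0.125) and with more doublets removed (adjusted p = 0.0538).

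For smooth muscle, 4 of 28 members tested passed the interaction, where 2.41% of all 13462 genes passed (0.743% above 0 and 1.67% below 0). Epha7 was below 0 (−0.72 ± 0.10, adjusted p = 0.00261, edgeR), so its LI excess was larger in smooth muscle than in other mesenchyme, and without LI replicate 1 it was −0.64 (adjusted p = 0.0319). Slit3 was above 0 (0.79 ± 0.14, adjusted p = 0.0123, edgeR), with 27.6 and 24.6 CPM in LI and 18.0 and 17.4 CPM in SI smooth muscle, and was lost without LI replicate 2 (adjusted p = 0.197) but not without LI replicate 1 (adjusted p = 0.0405). Slit2 (−1.09 ± 0.22, adjusted p = 0.0259, edgeR) and Epha4 (−0.82 ± 0.18, adjusted p = 0.0322, edgeR) were below 0. Without LI replicate 1, LI replicate 2 or SI replicate 2, the adjusted p of Slit2 became 0.162, 0.128 or 0.278 and that of Epha4 0.230, 0.104 or 0.0785. DESeq2 kept the Epha7 interaction alone (adjusted p = 0.0166), with adjusted p of 0.265 for Slit3, 0.175 for Slit2 and 0.0562 for Epha4. The finer clustering kept those of Epha7 (−1.25) and Slit3 (1.14) and lost those of Slit2 (−1.74, adjusted p = 0.136) and Epha4 (−1.24, adjusted p = 0.0739).

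Levels were next set side by side between cell groups. These are descriptions without a test, because the groups come from clustering the same cells. A gene was taken to stand out where its level, with 1 CPM added, was at least 2-fold that of each other named group in all 4 libraries. Of 26 members with a mean of at least 5 CPM in some group, 3 stood out, namely Efna1 and Unc5b in mesothelial cells and Ntn4 in neural cells. Of all 11150 genes considered, 6.28% stood out in 1 group. Ntn4 reached that mean in neural cells only, so that it entered through the group where it was high, and it was not among those standing out at a minimum mean of 20 CPM or without SI replicate 2. With cluster 6 as a further group, Unc5b did not stand out. Without LI replicate 1 the members' count was 5, and without SI replicate 2 it was 2.

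Efna1, an A-type ephrin known from vessels and epithelia, was at 34.6, 39.8, 56.3 and 32.5 CPM in mesothelial cells of LI replicates 1 and 2 and SI replicates 1 and 2. It was at 3.73 to 7.92 CPM in other mesenchyme, 4.03 to 9.05 CPM in smooth muscle and 0 to 0.422 CPM in neural cells (a count of 0 there allows up to 0.651 CPM), and the smallest fold over any other group was 3.54. Unc5b, a netrin receptor also known from endothelium, was at 26.6, 31.4, 21.4 and 19.1 CPM in mesothelial cells, 5.21 to 8.10 CPM in other mesenchyme and 2.62 to 3.85 CPM in smooth muscle. Epha2, which binds ephrin-A1, was also at least 2-fold higher in mesothelial cells than in other mesenchyme in every library, at 4.99, 19.1, 12.7 and 14.0 CPM against 1.74, 6.17, 2.84 and 4.89 CPM. Epha2 reached the mean of 5 CPM that this comparison required through its mesothelial level alone, so that it could not have been low there. With it, 3 of 25 members considered were 2-fold higher, beside 4.19% of all genes, and nothing is read from that count. Epha5 was at least 2-fold lower in mesothelial cells than in other mesenchyme in every library, as 1.59% of all genes were. The sort depleted endothelium and EpCAM+ cells, and summed endothelial markers reached 28.3 to 37.6 CPM in mesothelial cells against 13.2 to 20.8 CPM in other mesenchyme. Of the 8 endothelial markers, 2 to 4 were at 0 in mesothelial cells of each library. Most of the sum came from Egfl7, at 23.1 to 34.6 CPM against 9.93 to 18.3 CPM in other mesenchyme, while Esam had 3 to 13 UMIs per library, Pecam1 had 1 to 2 and Cdh5 0 to 2. The 6 epithelial markers differed more, at 101.8 to 207 CPM in mesothelial cells against 7.90 to 23.6 CPM in other mesenchyme. Their sum came from Krt8 (72.6 to 179.4 CPM) and Epcam (26.8 to 41.0 CPM), while Cdh1, Cldn3, Cldn6 and Cldn7 had 0 to 3 UMIs per library and 2 to 3 of the 6 were at 0. The part of endothelial or epithelial RNA in the mesothelial levels of Efna1, Unc5b and Epha2 was not tested.

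In neural cells, 1 member, Ntn4 (considered through its neural level alone), a basement membrane netrin, was at least 2-fold higher than in other mesenchyme in all 4 libraries (5.27% of all genes), from 6, 30, 26 and 40 UMIs (2.53, 5.38, 5.64 and 7.34 CPM) against at most 0.322 CPM. At least 2-fold lower in all 4 libraries were 7 of 24 members (Efna1, Efna3, Efna4, Efnb2, Ephb4, Ntn1 and Robo1) and 7.3% of all genes. Efna1, Efna3 and Ntn1 reached the required mean of 5 CPM through other mesenchyme alone, where they were higher, so nothing is read from that count. Efna3, an A-type ephrin, was at 0.538 to 3.04 CPM in neural cells and 14.0 to 18.5 CPM in other mesenchyme. Ntn1 was at 0 to 1.10 CPM in neural cells (a count of 0 in LI replicate 1 allows up to 1.27 CPM) and at 10.88 to 16.96 CPM in other mesenchyme. Its mean level was highest in smooth muscle, at 17.9, 28.1, 22.3 and 27.1 CPM. No member was 2-fold higher in smooth muscle than in other mesenchyme in every library (0.285% of all genes), and the EphB receptor Ephb1, at 0.352 to 1.61 CPM against 1.87 to 8.09 CPM, was 2-fold lower (0.364% of all genes). These counts were the same without LI replicate 1, 0 and 1 (Ephb1), beside 0.621% and 0.601% of all genes. Ephb1 reached the required mean of 5 CPM through other mesenchyme alone, where it was higher, so nothing is read from the counts that include it.

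Neural cells were further described by whether a cell had more UMIs of 6 neuronal markers (such as Tubb3 and Elavl4) or of 6 progenitor markers (such as Sox10 and Erbb3), which gave 401 neuronal and 845 progenitor cells, 85 of them near the dividing line. Slit2 was at 8.36, 8.01, 6.00 and 6.70 CPM in progenitor cells and at 44.3, 98.3, 70.6 and 90.6 CPM in neuronal cells of the same libraries. Robo2 was at 14.8, 18.3, 5.70 and 6.18 CPM in progenitors and 23.4, 59.0, 61.2 and 80.4 CPM in neuronal cells. Both ligand and receptor were thus higher in neuronal cells in every library, and LI replicate 1, which supplied 38 of the 85 cells near the line, had the lowest neuronal level of each. Progenitor levels of Robo2 were higher in both LI than in both SI libraries, whereas its neuronal levels were lower in both LI libraries.

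Slit3 (3.86, 15.8, 27.3 and 30.4 against 23.4, 46.3, 51.0 and 76.5 CPM) and Unc5c (34.1, 20.02, 10.2 and 4.38 against 55.3, 51.4, 44.0 and 65.1 CPM) were also higher in neuronal cells in all 4 libraries. Progenitor levels of Unc5c were higher in both LI than in both SI libraries, while its neuronal levels overlapped between regions. Efna5 ran from 45.0 to 61.3 CPM in progenitors and from 67.6 to 148.6 CPM in neuronal cells. Efnb2 ran from 5.15 to 18.0 CPM and from 24.6 to 59.6 CPM. Epha4, a receptor for both ephrin classes, went the other way, at 11.6, 32.0, 13.8 and 43.3 CPM in progenitors and 9.84, 1.90, 3.14 and 1.91 CPM in neuronal cells. Epha5 did not separate the 2, with 8.10 to 11.6 CPM in progenitors and 4.71 to 15.9 CPM in neuronal cells.

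**Figure D4:**
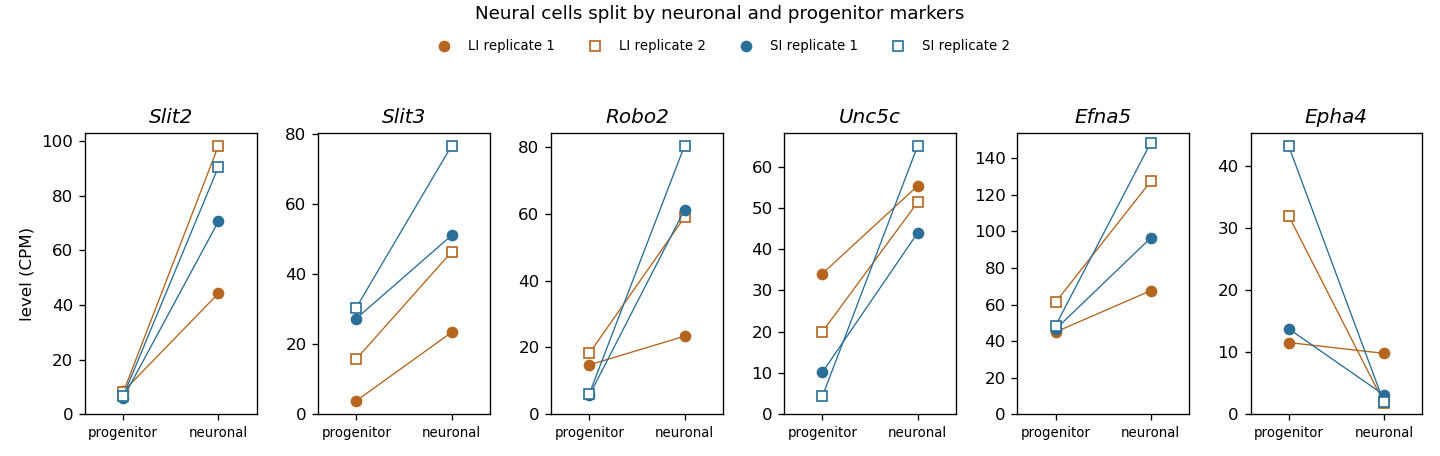
Level (CPM) of single genes in neural cells with mainly progenitor or mainly neuronal markers, with 1 line per library joining the 2 values. The lines of Slit2 rose from 6.00 to 8.36 CPM up to 44.3 to 98.3 CPM, whereas those of Epha4 ran downwards in all 4 libraries.

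Within the mesenchyme, cluster 6 stood apart in Slit2, at 123.4, 176.7, 116.6 and 255.6 CPM against 15.3 to 30.2 CPM in other mesenchyme. Slit2 was also among the genes leading that cluster. Among the 6 mesenchymal clusters (the 3 of other mesenchyme, smooth muscle, a dividing cluster and cluster 6), Slit2 and Epha3 stood out in cluster 6, 2 of 25 members considered, where 1.11% of all 10695 genes stood out in any cluster. The smallest fold over any other cluster was 4.75 for Slit2 and 2.30 for Epha3, which was at 7.26, 14.2, 12.6 and 35.9 CPM in cluster 6. Epha3 reached the required mean of 5 CPM through cluster 6 alone, here and against other mesenchyme, so nothing is read from counts that include it. Against other mesenchyme, Slit2, Epha3 and Epha4 were at least 2-fold higher in every library (1.74% of all genes), with Epha4 at 113.7, 140.2, 129.2 and 145.6 CPM against 43.9 to 69.5 CPM. Ntn1 was at least 2-fold lower (1.02% of all genes), at 2.74 to 4.86 CPM. It was considered through its level in other mesenchyme alone, so nothing is read from that count. The same 3 were higher and Ntn1 lower without LI replicate 1, beside 1.83% and 1.16% of all genes. Unc5c had its highest mean level in this cluster, at 85.9, 90.4, 85.0 and 139.5 CPM, and there the regions overlapped.

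The called genes were then described by mesenchymal cluster. Clusters 0, 2 and 3 form other mesenchyme and cluster 1 is smooth muscle, so that 4 of the 6 clusters hold the cells that gave the calls, and all come from the same 4 libraries. These tallies are therefore no independent support. Of all 10695 genes considered, 14.8% were higher in both LI than in both SI libraries in at least 5 of 6 clusters, and 4.96% were so in SI. Of the 25 members considered, 7 were so in LI, among them Efna4, Ephb2 and Ephb3, which edgeR did not call with all 4 libraries. In SI 2 were so, Unc5c and Efnb2, the latter likewise not called, so the pattern is not particular to the called genes. Robo2 was higher in both LI than in both SI libraries in 6 of 6 clusters. Epha5 and Epha7 were so in 5 of 6 and overlapped in cluster 6, and Slit3 was so in 5 of 6 and overlapped in cluster 3. Unc5c was higher in SI in 5 of 6 clusters and overlapped in cluster 6. The levels differed between clusters. In cluster 3, led by Adamdec1 and Bmp3, Epha5 was at 121.5 to 195.0 CPM in LI and 11.05 to 14.5 CPM in SI, while in cluster 0, led by Igfbp5, Scx and Pitx1, it was at 20.2 to 32.0 CPM in LI and 1.45 to 4.15 CPM in SI. Slit3 was at 49.8 to 50.6 CPM in LI and 8.85 to 16.7 CPM in SI in cluster 0 and 23.6 to 27.2 against 23.7 to 24.9 CPM in cluster 3. Outside these clusters lay 140 cells led by Foxd1, Foxc2 and Barx1, of which 79.29% came from SI replicate 2. LI replicates 1 and 2 and SI replicates 1 and 2 gave 4, 6, 19 and 111 of these cells. The mean of the 4 library levels of Robo2 was 136.9 CPM, in which libraries with few cells weigh as much as SI replicate 2. That cluster is mainly 1 library and was left out of all groups.

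**Figure D5:**
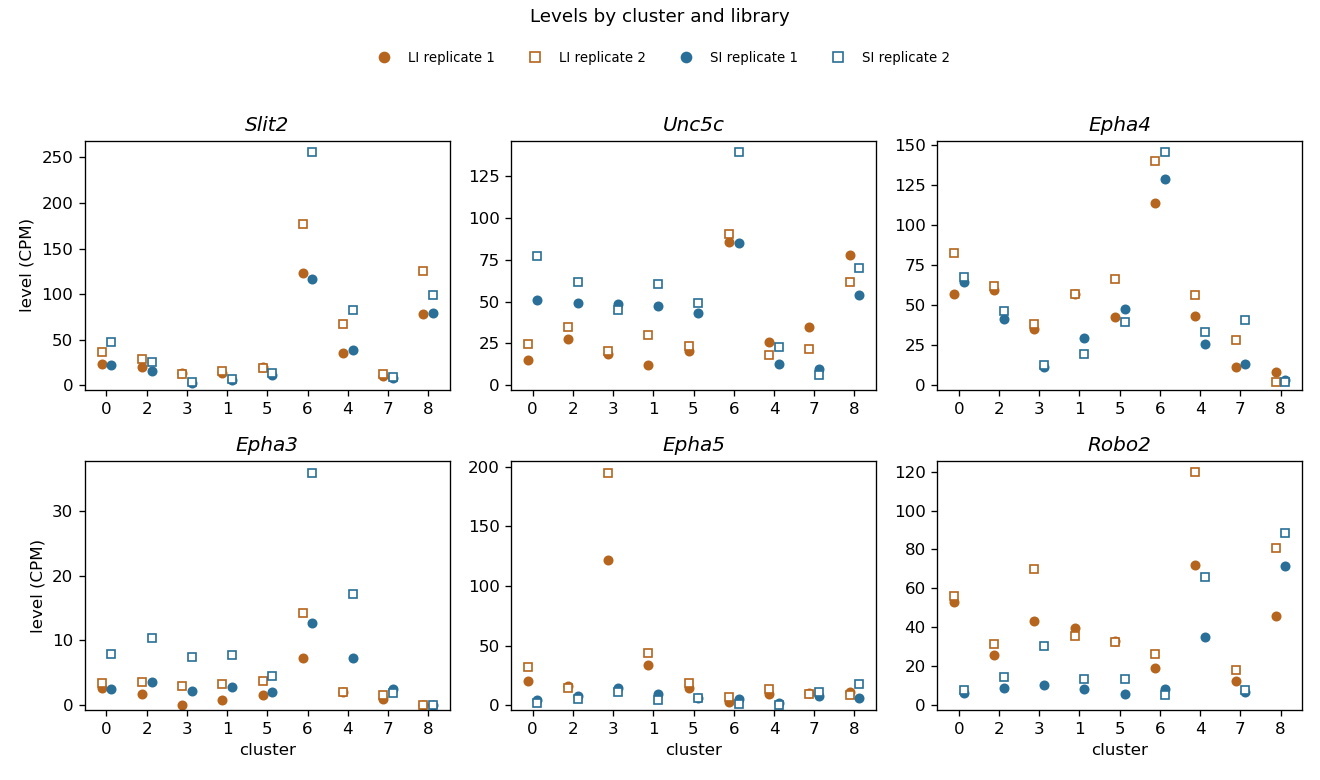
Level (CPM) of single genes in each cluster (x axis) and library (points), with LI and SI in separate colours. Epha5 in cluster 3 separated widely between LI (121.5 to 195.0 CPM) and SI (11.05 to 14.5 CPM), and Slit2 was highest in cluster 6.

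The share of cells with at least 1 UMI was compared after each cell had been thinned to 3000 UMIs, which left out 715 of the shallower cells of other mesenchyme in LI replicate 1 and 35 to 99 in each of the other libraries. In other mesenchyme, 8.33% and 10.91% of cells had Epha5 in LI and 2.10% and 1.32% in SI. The shares for Epha7 were 16.32% and 22.78% in LI and 8.55% and 8.05% in SI, and those for Robo2 were 11.85% and 15.01% in LI and 3.05% and 4.48% in SI. Slit3 was found in 9.81% and 12.70% of LI cells and in 5.15% and 3.88% of SI cells. Unc5c was found in 5.06% and 7.17% of LI cells and in 12.63% and 16.75% of SI cells. These shares come from the same UMIs as the CPM and are no further evidence of a regional difference. Free RNA can give a UMI to a cell that does not express the gene, and no group here is known to lack these 5 genes, so that a background share was not measured and no share is read as background or as expression. The 95% Wilson intervals of the libraries did not overlap between regions, but they take cells as the unit and cover counting error only. The 5 genes had already been called, and the share of all genes with such intervals was not measured. Nothing is read from the intervals. The nearest bounds were 7.37% in LI and 2.73% in SI for Epha5, 15.0% and 9.71% for Epha7, 10.7% and 5.33% for Robo2, 8.77% and 6.08% for Slit3, and 8.24% and 11.4% for Unc5c. Without thinning, the mean share over the 4 libraries was 9.67% for Epha5 and 25.3% for Unc5c, against 5.67% and 10.4% after it. In neural cells thinned to the same depth, the shares were 1.57% to 3.30% for Epha5, 3.30% to 5.02% for Epha7, 7.84% to 8.64% for Robo2, 3.30% to 12.85% for Slit3 and 4.39% to 10.34% for Unc5c. A UMI of Efna1 was seen in 9.80%, 11.45%, 15.95% and 7.74% of mesothelial cells and in at most 0.383% of neural cells of any library, where a count of 0 allows up to 0.701% to 1.42% of cells with a UMI at this depth, which does not limit the cells expressing it. Slit2 was found in 27.76%, 39.07%, 31.14% and 50.46% of cells of cluster 6.

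Co-receptors, other ligands and intracellular effectors of these receptors, 30 partner genes in all, were described alongside. In other mesenchyme 5 of 25 tested passed, all higher in LI, beside 4.53% of all genes in either direction and 3.19% higher in LI, and the median log2 difference of the 25 was −0.27. Without SI replicate 1 or SI replicate 2 the count was 3. The 3 with the smallest adjusted p were Flrt2, Flrt3 and Vav3. Flrt2 encodes a leucine-rich membrane protein that binds Unc5 receptors, and was at 33.2 and 47.4 CPM in LI and 6.13 and 10.4 CPM in SI, a log2 difference of −2.12 ± 0.28 (adjusted p = 0.00757, edgeR). This call depended on how cells were grouped, the difference being −1.03 (adjusted p = 0.323) at the finer clustering and −1.16 (adjusted p = 0.201) when the unnamed clusters were added. Its relative Flrt3, which also binds Robo1, was at 102.1 and 87.8 CPM in LI and 35.9 and 33.0 CPM in SI (log2 difference −1.29 ± 0.18, adjusted p = 0.00911, edgeR). Vav3, an exchange factor acting after Eph receptors, was at 18.0 and 13.8 CPM in LI and 4.30 and 4.89 CPM in SI (log2 difference −1.62 ± 0.24, adjusted p = 0.0106, edgeR). Without SI replicate 2 the adjusted p of Flrt3 was 0.0721, and without SI replicate 1 that of Vav3 was 0.0526. In smooth muscle 1 partner passed, beside 1.39% of all genes in either direction and 1.03% higher in LI, Flrt2 at −1.55 ± 0.22 (adjusted p = 0.0200, edgeR), with counts of 6, 3 and 4 without LI replicate 2, SI replicate 1 and SI replicate 2. In neural cells 8 partners passed without LI replicate 2 and 1 without LI replicate 1 or SI replicate 1, but with all 4 libraries none did in mesothelial or neural cells in edgeR or DESeq2, with 0 and 5 at an unadjusted edgeR p under 0.05. Of the netrin receptors outside the Unc5 family, Dcc had 0, 5, 0 and 3 UMIs in other mesenchyme, and Neo1 was at 45.7 to 73.9 CPM there.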

How the data were processed

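The deposited files held UMI counts per gene and cell, which the authors had made with Cell Ranger 3.1.0 on mm10 and had left unnormalized. The members, gene lists and tests were chosen with earlier results of these data known. Cells with at least 1000 genes and under 10% mitochondrial UMIs were kept. The doublet caller (scrublet in scanpy 1.11.5) marked 1 to 6 cells per library, so the highest-scoring 0.8% per 1000 cells were removed (183 to 348 per library). Depth was 28896597 to 56968160 UMIs in kept cells per library. The libraries were integrated and clustered with Seurat 5.3.0 (1958 variable genes, Louvain resolution 0.3), leaving out the members, partner genes and Hox genes. Clusters were named from fixed markers, but the rule for applying them was settled after the clusters had been seen. The unnamed clusters entered no group, and cluster 6 was added as a further group after seeing the data.

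UMIs were summed per library and group, scaled to 1000000 per library and group (CPM), and tested with edgeR 4.0.16 (TMM factors, filterByExpr, quasi-likelihood F test, Benjamini-Hochberg adjustment). Standard errors were derived from the F statistic. The interaction model held library as a block. Named with values were members called in any of these tests and members standing out in a group. Partners were limited to 3 per group. Alternatives were DESeq2 1.42.0, RLE factors, no low-count filter, a replicate block, thinned sums, finer clustering, more doublets removed, and each library left out. The code was tested on simulated counts. The 3 Ntn5 identifiers were kept separate. Of 36 identifiers matched in GENCODE vM21, 10 share exon bases with an antisense gene and none with a gene on the same strand.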

Additional observations from a re-analysis of the deposited data

Results flagged for a closer look

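The regional difference (log2 SI over LI) differed between cell groups, by the interaction test against other mesenchyme, for the following genes. No explanation was weighed. In neural cells the difference of differences was −2.19 for Unc5c and 2.20 for Slit3, whose signs turned between the groups, and −1.26 for Efnb1, whose sign also turned. It was 2.79 for Epha5, 1.81 for Robo2, 1.21 for Epha7 and 0.41 for Efna5, and among partner genes 3.16 for Flrt2, 1.83 for Ntng1, a membrane-anchored netrin relative, 1.17 for Ablim1, −0.79 for Trio and −0.66 for Srgap2. The Srgap2 call was lost when any 1 of the 4 libraries was left out, that of Trio without LI replicate 1 (adjusted p = 0.0606), and that of Ablim1 without LI replicate 1, LI replicate 2 or SI replicate 2.

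In mesothelial cells it was −1.80 for Unc5c, 0.96 for Robo2, 0.64 for Efna5 and 0.84 for Efna1, and among partner genes 1.84 for Flrt2, 1.21 for Grip1 and 0.85 for Flrt3. The Flrt3 call was lost with DESeq2 (adjusted p = 0.0843), at the finer clustering (adjusted p = 0.0733, edgeR) and without LI replicate 1, where its value was 0.52. DESeq2 did not call Grip1 either (adjusted p = 0.0816). In smooth muscle it was −0.72 for Epha7, −1.09 for Slit2, −0.82 for Epha4 and 0.79 for Slit3, and 0.40 for the partner Flrt3. With 2 libraries per region, no search for outlying libraries was made.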

How the results depend on the processing

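Over 9 regional member results and 114 alternatives, 104 kept their call, 10 lost it and 0 reversed. For the 15 member interactions these numbers were 135, 108, 27 and 0. Members called in other mesenchyme numbered 5, but 10 without a low-count filter and 5 to 11 with 1 library left out. In smooth muscle they numbered 3, but 6 with DESeq2, 8 without the filter and 3 to 7 with 1 library left out. In mesothelial cells they numbered 1, but 3 with RLE factors, 5 without the filter, 0 with more doublets removed, 3 at resolution 0.6 and 0 to 2 with 1 library left out. In cluster 6 they numbered 0, but 2 without the filter and 0 to 3 with 1 library left out. In neural cells they numbered 0, but 2 without the filter and 0 to 5 with 1 library left out. Interaction calls were 4 in mesothelial cells (2 with DESeq2, 3 to 4 with 1 library left out), 4 in smooth muscle (1 with DESeq2, 2 at resolution 0.6, 1 to 4 with 1 library left out) and 7 in neural cells (6 to 7 with 1 library left out). Partners called were 5 in other mesenchyme (3 to 6 with 1 library left out), 1 in smooth muscle (4 with DESeq2, 5 without the filter, 1 to 6 with 1 library left out) and 0 in neural cells (3 without the filter, 0 to 8 with 1 library left out). Members standing out in a group numbered 3, but 1 with 5 CPM added, 1 at 3-fold and 2 to 5 with 1 library left out. The mean share of cells with Unc5c in other mesenchyme was 25.3% without thinning, and that of Efna1 in mesothelial cells was 11.2% at 3000 UMIs, 7.60% at 2000 and 26.1% without thinning. Over all genes in other mesenchyme, 623 passed, but 1761 without the filter and 346 to 2161 with 1 library left out.

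A replicate block, fitted because the labels number the libraries alike in SI and LI, gave 10 members in other mesenchyme, 8 in smooth muscle, 5 in mesothelial and 2 in neural cells, 1 in cluster 6 (Robo2, adjusted p = 0.0200), 6 partners in smooth muscle and 3 in neural cells, and 1986 genes in all in other mesenchyme. It called Efnb2 in other mesenchyme (adjusted p = 0.00167), smooth muscle (0.00462) and mesothelial cells (9.64e-07) and Efnb1 in other mesenchyme (0.0126), none of which passed in the same fit without the block. Its other added calls were Epha3 (4.57e-05), Epha7 (3.06e-07) and Robo2 (0.000637) in mesothelial cells, Epha3, Robo1 and Unc5d in other mesenchyme, Epha3, Epha4, Slit2 and Unc5c in smooth muscle, and Robo1 and Slit3 in neural cells. Deviations of same-numbered libraries correlated at 0.14 to 0.41 across genes, which are not independent replicates. With 2 pairs this is a shared number, not a shown pairing. The cause of these shifts was not tested, beyond fewer samples in the fits with a library left out. Depth limits genes near the count floor, such as mesothelial Epha5, and 2 libraries per region limit every test.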
